A study of Mus musculus with 8 samples.

Results

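The genes described here are 37 members of 2 overlapping programmes, the targets of the transcription factor NF-kB and the factors that senescent cells secrete or lose. They were taken by gene symbol from a list of names. Of the 37 symbols, 32 had a row in a table of 21154 genes, 21 passed the filter on low counts (15373 genes did) and 11 had a row but too few reads for a test. The other 5 (Il1a, Ccl8, Mmp12, Areg and Ereg) had no row, so their levels were not analysed here. The RNA came from osteoblasts of female mice of the genotype Col2.3-GFP, in which a fragment of the Col1a1 promoter drives green fluorescent protein in bone-forming cells, and the cells were sorted by that fluorescence from digested bone chips. All mice were 8 to 10 weeks old at treatment, received 4 intravenous injections at intervals of 1 week, and were killed 8 weeks after treatment. The PBS group (3 libraries) received phosphate-buffered saline, and the DOX group (5 libraries) received doxorubicin, an anthracycline that breaks DNA, at 5 mg/kg per injection. The labels name 2 batches. PBS replicate 1 and DOX replicates 1 and 2 were in batch 1, and the remaining 5 libraries were in batch 2. The labels of DOX replicate 1 disagree, with DOX in the title and PBS in the treatment tag. It was counted as DOX. The titles call the libraries biological replicates, and nothing further ties them to separate animals, so p-values measure the spread between these libraries.

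NF-kB is a family of dimers of Rel proteins that inhibitor proteins of the IkB family hold in the cytoplasm. Cytokines, microbial products and DNA damage can activate the kinase that marks IkB for degradation, after which the dimers enter the nucleus and switch on cytokines, chemokines, adhesion molecules and their own inhibitors. Senescent cells, which have left the cell cycle for good, often release such cytokines together with proteases and growth factors, and lose the nuclear lamina protein lamin B1 and chromatin proteins of the HMGB family. In bone, cytokines of this kind act on the osteoclasts that resorb matrix.

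All 8 libraries had 39419027 to 44299591 counts and held the defining osteoblast markers, with Col1a1 at 82416 CPM or more and Bglap, the gene of osteocalcin, at 13199.7 CPM or more in each library. Levels are given as CPM, each count set against its library total after scaling by the TMM method. PBS replicate 1 and DOX replicate 1 stood apart, with the collagen genes Col1a1 and Col1a2 at 19.1% and 23.2% of their counts and at 26.0% to 39.5% in the other libraries. The comparison of groups is therefore also given without PBS replicate 1, the only PBS library of batch 1. Since the libraries are bulk samples, fewer cells of a type and less RNA per cell cannot be told apart.

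The promoters show how far the members share the site that NF-kB dimers bind. RefSeq promoter sequences (GRCm38.p6, from 250 bases before to 50 after an annotated start) were matched by symbol for 27 members. They were searched on both strands for the consensus kappaB motif of 10 bases, with overlapping matches counted. The motif was in 11 of these 27 members (40.7%) and in 1388 of the 27025 genes of the promoter table (5.14%), or 1480 of its 32851 windows (4.51%). The 27 include Il1a, Ccl8, Mmp12 and Areg, which had no row of counts and no match. Of the matched members that passed the filter, 9 of 17 held the motif (52.9%). By role, it was in both matched NF-kB subunits (Nfkb2 and Rel), in 5 of 8 inhibitors and feedback genes (Nfkbia, Nfkbie, Bcl3, Tnfaip3 and Tnip1), in 2 of 3 chemokines (Cxcl1 and Cxcl2) and in 1 of 4 cytokines (Il6). It was in Hmgb2 and in none of the matched proteases, growth and lipid factors or the group of Icam1, Tnfaip2 and Saa3. A match is a run of letters and not a measured binding site, and no match says only that the motif is not in the window. The matched 10 bases of 6 members are set side by side, to compare a chemokine site with those of inhibitors, a cytokine and Hmgb2, each read on the strand of the motif.
Nfkbia: GGGAATTTCC
Cxcl1: GGGAATTTCC
Cxcl2: GGGAATTTCC
Il6: GGGATTTTCC
Nfkbie: GGGGGATTCC
Hmgb2: GGGACTCTCC
Nfkbia, Cxcl1 and Cxcl2 carried identical letters. Among the other 5, Rel and Tnfaip3 shared the site GGGGATTTCC, and Nfkb2 and Tnip1 shared GGGAATTCCC and GGGGAATTCC. Matches on opposite strands or shifted by a base overlapped each other in Nfkb2, Rel, Tnip1, Cxcl1 and Cxcl2.

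Whole promoters are shown for Nfkbia, the tested inhibitor with the most counts, for Cxcl1, which shares its site letters, and for Saa3, a target without a match, with motif letters in capitals. Nfkbia lies on the minus strand at chr12:55492598-55492897, Cxcl1 on the plus strand at chr5:90890995-90891294 and Saa3 on the minus strand at chr7:46715627-46715926, all in GRCm38.p6 and all written 5′ to 3′ along the gene. The Nfkbia motif is read on the opposite strand, so its capitals are the reverse complement of the letters above.
Nfkbia: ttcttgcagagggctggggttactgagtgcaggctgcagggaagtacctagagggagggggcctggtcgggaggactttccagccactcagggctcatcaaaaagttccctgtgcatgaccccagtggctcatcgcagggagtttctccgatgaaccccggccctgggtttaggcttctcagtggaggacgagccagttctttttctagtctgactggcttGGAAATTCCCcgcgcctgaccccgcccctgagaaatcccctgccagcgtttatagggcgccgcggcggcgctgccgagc
Cxcl1: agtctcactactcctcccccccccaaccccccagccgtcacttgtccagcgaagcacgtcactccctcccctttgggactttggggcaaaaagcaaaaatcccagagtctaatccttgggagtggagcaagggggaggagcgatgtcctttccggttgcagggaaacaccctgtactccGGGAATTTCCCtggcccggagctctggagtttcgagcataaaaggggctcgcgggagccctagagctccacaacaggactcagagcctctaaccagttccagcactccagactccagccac
Saa3: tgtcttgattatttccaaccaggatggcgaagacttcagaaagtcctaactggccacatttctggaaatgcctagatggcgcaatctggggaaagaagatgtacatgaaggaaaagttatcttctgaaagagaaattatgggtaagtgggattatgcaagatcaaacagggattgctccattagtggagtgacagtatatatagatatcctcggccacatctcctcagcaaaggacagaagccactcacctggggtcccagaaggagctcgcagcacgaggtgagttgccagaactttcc
The match lies 29 to 20 bases before the start in Nfkbia and 71 to 61 bases before it in Cxcl1, where overlapping matches on both strands join. The Saa3 window held no match.

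**Figure D1:**
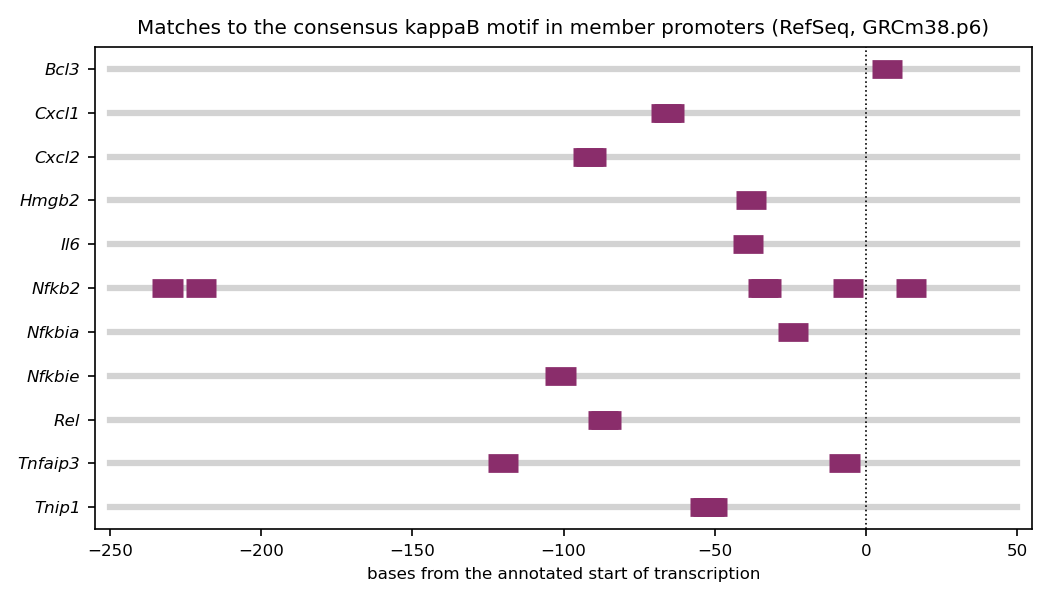
Position of each match to the consensus kappaB motif in the promoters of the 11 members that held one. The horizontal axis gives bases from the annotated start of transcription, grey lines span the 250 bases before and 50 after it, and purple blocks are matches on either strand. Nfkb2 and Tnfaip3 have more than 1 annotated start and their windows are drawn on 1 line.

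The comparison of DOX with PBS asks what a past course of chemotherapy left in osteoblast gene expression. No member passed the test. EdgeR's quasi-likelihood test with batch and group as terms called 0 of the 21 tested members and 0 of 15373 genes (0%), and the adjusted p of the members lay between 0.995 and 0.996. At an unadjusted p under 0.05 it listed 0 of 21 members and 571 of all genes (3.71%). DESeq2 called 0 members and 26 genes. Of the 21 members 10 had a log2 fold change above 0 (47.6%), against 53% of all genes tested, and their median was -0.06 against 0.02 over all genes. No tested member had every DOX library above every PBS library (1.24% of all genes tested) or every DOX library below (1.19%). In 14 of 21 members the 95% interval of the log2 fold change lay within -1 and 1, and in 10 of 21 without PBS replicate 1. With all libraries the 7 with wider intervals were Rel, Tnfaip3, Cxcl1, Icam1, Saa3, Mmp3 and Lmnb1.

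**Figure D2:**
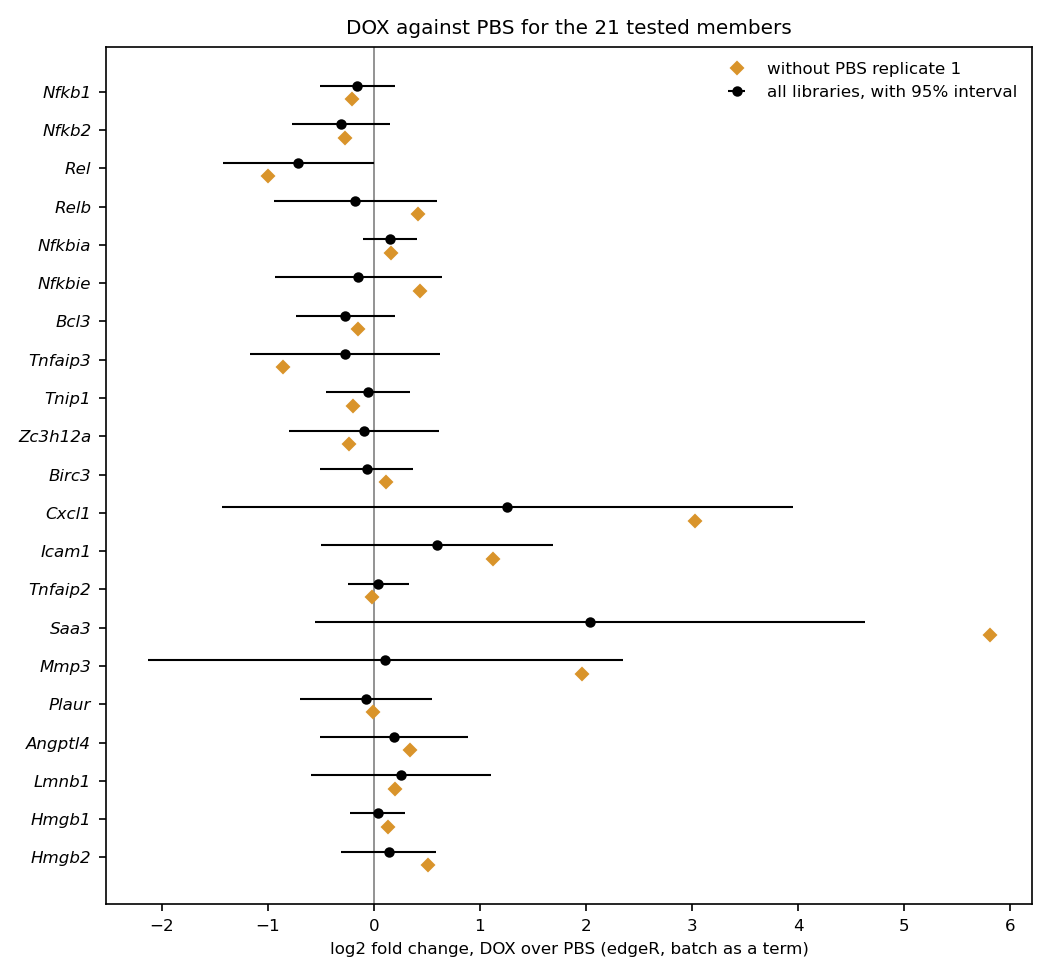
Log2 fold change of DOX over PBS for the 21 tested members, with black points and 95% intervals for all 8 libraries and orange diamonds for the fit without PBS replicate 1. Every black interval includes 0, and Saa3, Cxcl1 and Mmp3 have the widest intervals and move farthest when PBS replicate 1 is left out.

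Without PBS replicate 1 the same test again called 0 of 21 members and 0 of 15953 genes (0%). In that fit batch 1 has no PBS library, and DOX replicates 1 and 2 inform only the spread. At an unadjusted p under 0.05 it listed 5 of 21 members (23.8%) and 1084 genes (6.79%). Saa3, Mmp3 and Hmgb2 were higher in DOX, and Rel and Tnfaip3 were lower. The adjusted p was 0.58 for Saa3 and 0.701 for the other 4. Of the 21 members 12 had a value above 0 (57.1%), against 53.4% of all genes, with a median of 0.13 against 0.03. Smaller shifts included Bcl3, from -0.27 to -0.15, Tnip1, from -0.06 to -0.20, and Angptl4, from 0.19 to 0.34. The members' median was also above 0 without DOX replicate 1 (0.07) and without DOX replicate 4 (0.02).

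All 4 NF-kB subunit genes among the members had a negative log2 fold change in DOX, and none passed. Of all genes tested, 53% had a value above 0. Rela, also a subunit gene, is given with the pathway list below. Nfkb1, which encodes the precursor of the p50 subunit, stood at 12.8, 11.8 and 13.5 CPM in PBS replicates 1 to 3 and at 11.2, 13.5, 9.33, 10.8 and 12.7 CPM in DOX replicates 1 to 5. The groups overlapped, and its log2 fold change was -0.16 ± 0.16 (SE). Nfkb2, which encodes the p52 precursor of the non-canonical arm, stood at 13.8, 10.4 and 7.99 CPM in PBS and at 10.2, 11.3, 9.11, 5.17 and 8.45 CPM in DOX. Its highest library was PBS replicate 1 and its lowest DOX replicate 4, with a log2 fold change of -0.31 ± 0.21 (SE).

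Rel, which encodes the c-Rel subunit, came nearest to an unadjusted p of 0.05 among the members, and was singled out after its values were seen. Its levels were 6.78, 7.06 and 4.87 CPM in PBS and 7.32, 4.94, 1.77, 3.05 and 4.08 CPM in DOX. DOX replicates 3 to 5 lay below every PBS library, whereas DOX replicate 1 was the highest of all 8. The log2 fold change was -0.71 ± 0.32 (SE, edgeR, unadjusted p = 0.0505, adjusted p = 0.995) and -0.997 ± 0.37 without PBS replicate 1 (adjusted p = 0.701). Relb, the partner of p52, had a log2 fold change of -0.17 ± 0.35 (SE) whose sign depended on either of 2 libraries. It stood at 6.95 CPM in PBS replicate 1 and at 3.95 and 2.86 CPM in the other PBS libraries, with 2.73, 3.85, 3.30, 4.71 and 5.55 CPM in DOX. Without PBS replicate 1 the value was 0.42 ± 0.34, and without DOX replicate 1 it was 0.03.

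Of the 8 inhibitors and feedback genes, 7 were tested, 1 with a positive and 6 with a negative log2 fold change. The value was positive for 53% of all genes tested. Nfkbia encodes IkB alpha, the inhibitor that NF-kB itself induces and that carries the motif shown above. It stood at 77.9, 68.1 and 73.5 CPM in PBS and at 94.1, 78.7, 72.5, 80.2 and 84.1 CPM in DOX. In DOX 4 of 5 libraries lay above every PBS library, and the log2 fold change was 0.15 ± 0.11 (SE), with a 95% interval from -0.10 to 0.41. This value was nearly the same within batch 1 (0.15 ± 0.19) and within batch 2 (0.16 ± 0.14). Nfkbie, which encodes IkB epsilon, stood at 5.86, 1.88 and 1.93 CPM in PBS and at 2.28, 3.50, 2.26, 3.16 and 2.24 CPM in DOX. All 5 DOX libraries thus lay between PBS replicate 1 and the other PBS libraries, and the log2 fold change of -0.15 ± 0.35 (SE) became 0.44 ± 0.37 without PBS replicate 1.

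Tnfaip3, which encodes the ubiquitin-editing enzyme A20 that ends NF-kB signalling, had the opposite arrangement. It stood at 1.39 CPM in PBS replicate 1 and at 5.13 and 6.83 CPM in PBS replicates 2 and 3, with 3.48, 2.46, 3.35, 2.56 and 3.91 CPM in DOX. Again every DOX library lay between PBS replicate 1 and the other PBS libraries. Its log2 fold change was -0.27 ± 0.40 (SE), -0.86 ± 0.31 without PBS replicate 1 (adjusted p = 0.701) and 0.06 without PBS replicate 3. Tnip1, which encodes a partner of A20, stood at 13.1, 12.9 and 15.0 CPM in PBS and at 13.1, 17.7, 13.2, 9.98 and 13.0 CPM in DOX, a log2 fold change of -0.06 ± 0.18 (SE). Bcl3 encodes a nuclear IkB protein. Its levels, singled out after they were seen, were 7.77, 4.50 and 4.05 CPM in PBS and 5.62, 5.71, 4.60, 3.07 and 3.84 CPM in DOX, with a log2 fold change of -0.27 ± 0.21 (SE). Every batch 1 library of Bcl3 lay above every batch 2 library. Traf1, which encodes an adaptor of TNF receptors, lay below the filter with 25, 3 and 8 counts in PBS and 20, 0, 3, 0 and 8 in DOX. Zc3h12a, the gene of an RNase that degrades cytokine messages, ranged over all libraries from 1.76 to 3.15 CPM, and Birc3, the gene of a ubiquitin ligase of the TNF receptor complex, from 8.91 to 17.0 CPM.

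**Figure D3:**
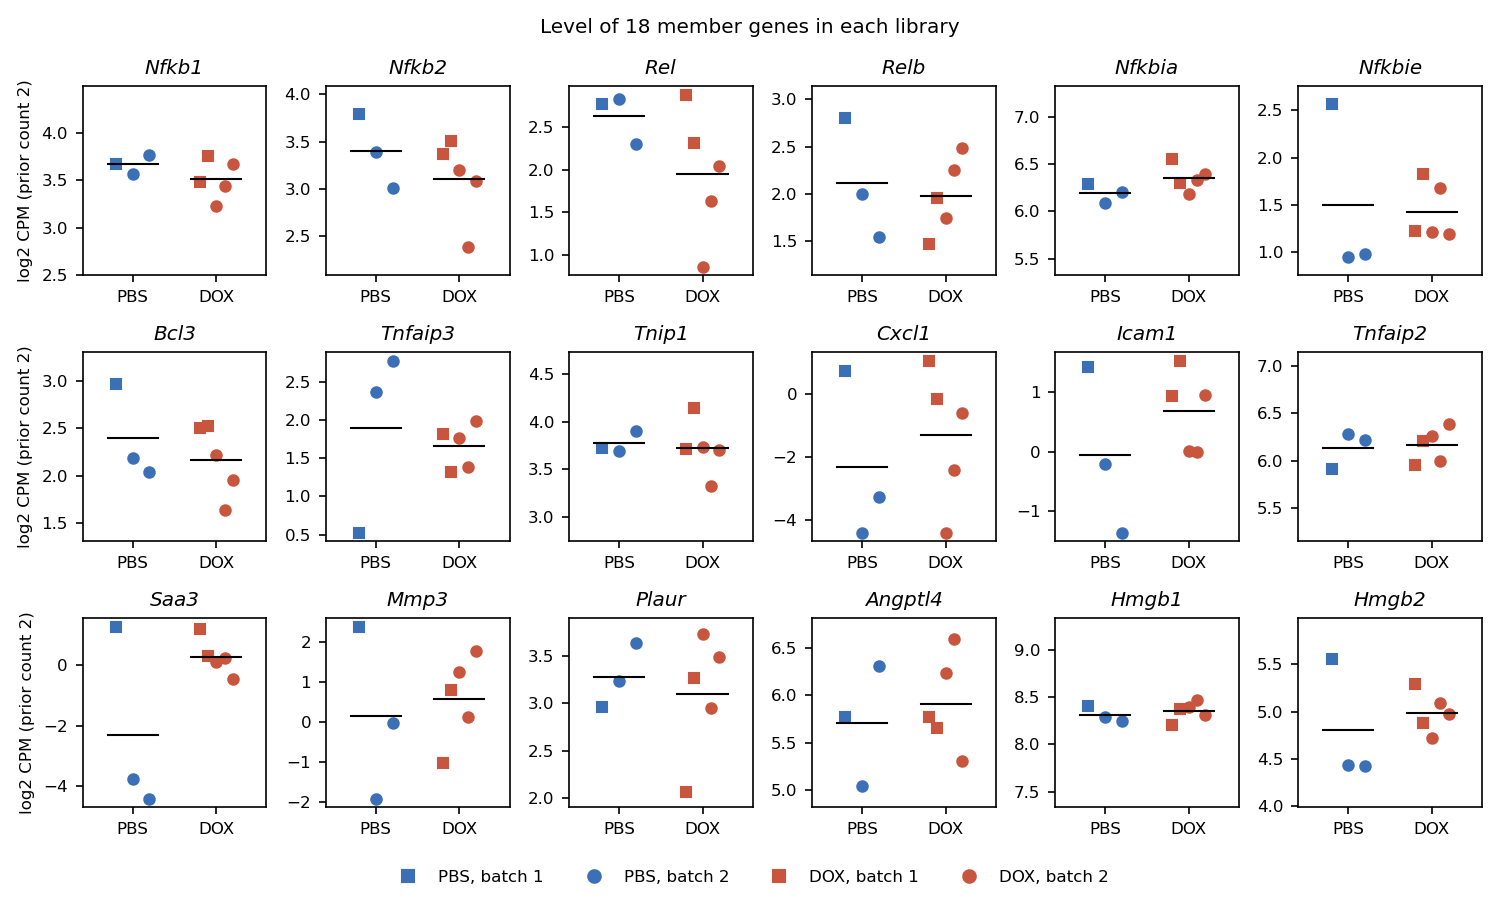
Log2 CPM (with a prior count of 2) of 18 members in each library, PBS in blue and DOX in red, batch 1 as squares and batch 2 as circles, with black lines at the group means. Each panel has its own vertical range, and PBS replicate 1 (blue square) lies apart from the other PBS libraries for Nfkbie, Tnfaip3, Cxcl1, Saa3, Mmp3 and Hmgb2.

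The cytokines were at the edge of detection in these osteoblasts. A library with 0 counts allows a level of up to 0.0563 to 0.085 CPM, by a limit of 3 counts that covers counting error only. Tnf had 24 counts in PBS replicate 1 and 0 in the other 7 libraries. Il1b had 11 counts in PBS replicate 1, 7 in DOX replicate 1 and 0 to 2 elsewhere. Il6, a cytokine of the senescent secretome and of osteoclast induction, had 21, 0 and 31 counts in PBS and 0, 0, 1, 0 and 1 in DOX. The ratio of DOX to PBS for Il6 was 0.0224 (counting interval 0.00264 to 0.0850), but its 52 PBS counts came from 2 libraries. Amplified reads without molecular identifiers are not independent molecules, so such an interval says nothing of the spread between mice.

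Chemokine transcripts also appeared in single libraries, and in both groups. Cxcl2 had 48 counts in PBS replicate 3 and 0 elsewhere, Cxcl5 had 15 and Ccl7 19 in DOX replicate 1 alone. Ccl2, a monocyte attractant, had 31 counts in DOX replicate 5, 4 in PBS replicate 3 and at most 1 in the other 6 libraries. Ccl5 had 7 counts in PBS replicate 1 and 0, 11, 0, 1 and 8 in DOX. Cxcl1, a neutrophil attractant, was the 1 chemokine with enough counts for a test. It stood at 1.62, 0 and 0.0566 CPM in PBS and at 2.02, 0.844, 0, 0.139 and 0.603 CPM in DOX, so that the batch 1 libraries of both groups lay above all batch 2 libraries. Its log2 fold change was 1.26 ± 1.21 (SE), with an interval from -1.43 to 3.95. With 1 library left out the value of Cxcl1 ran from 0.39 (DOX replicate 5 left out) to 3.03 (PBS replicate 1 left out), and it was 0.35 with no batch term. Within batch 2 it had 31 counts in DOX and 2 in PBS, an 8.90-fold ratio (counting interval 2.26 to 76.7). Of these DOX counts 25 were in DOX replicate 5 and 0 in DOX replicate 3. As for Il6, the interval says nothing of the spread between mice.

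**Figure D4:**
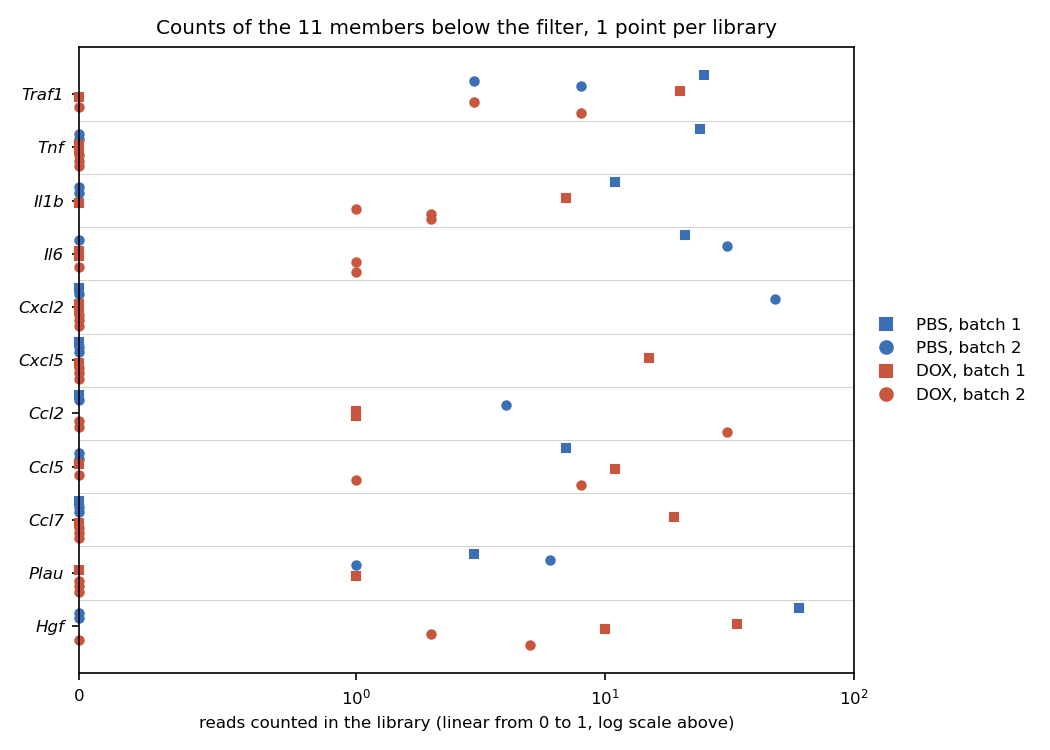
Counts of the 11 members below the filter in each library, PBS in blue and DOX in red, batch 1 as squares and batch 2 as circles, on an axis that is linear up to 1 and logarithmic above. Tnf, Cxcl2, Cxcl5 and Ccl7 have counts in 1 library each, and Hgf has more counts in the 3 batch 1 libraries than in any batch 2 library.

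The group of other NF-kB targets was tested in full, and all 3 genes had a value above 0, as did 53% of all genes. Tnfaip2, a gene induced by TNF, stood at 60.0, 77.5 and 74.6 CPM in PBS and at 61.7, 73.8, 76.6, 63.9 and 83.5 CPM in DOX. The groups overlapped, and its log2 fold change was 0.04 ± 0.13 (SE). Icam1, which encodes an adhesion molecule for leukocytes, stood at 2.65, 0.818 and 0.340 CPM in PBS and at 1.86, 2.85, 0.960, 0.947 and 1.88 CPM in DOX. Its log2 fold change was 0.60 ± 0.49 (SE), and in batch 2 each of the 3 DOX libraries lay above both PBS libraries. With 1 library left out the value of Icam1 ran from 0.21 (PBS replicate 3 left out) to 1.13 (PBS replicate 1 left out). Saa3, which encodes an acute-phase serum amyloid protein, had the largest ratio of DOX to PBS within batch 2 among the tested members. It had 125 counts in PBS replicate 1 but 1 and 0 in PBS replicates 2 and 3, against 111, 48, 41, 49 and 28 counts in DOX. In CPM these were 2.35, 0.0273 and 0 in PBS and 2.24, 1.19, 1.01, 1.13 and 0.676 in DOX. All 5 DOX libraries expressed Saa3 at levels between PBS replicate 1 and the other PBS libraries. The log2 fold change over all libraries was 2.04 ± 1.16 (SE, adjusted p = 0.995 in edgeR). With 1 library left out it ran from 1.04 (PBS replicate 3 left out) to 5.81 (PBS replicate 1 left out), and it was 0.64 with no batch term. Fitted values of Saa3 and Cxcl1 without PBS replicate 1 depend on the prior count, since almost no PBS counts remain. Within batch 2 the 118 DOX counts against 1 PBS count gave a 67.8-fold ratio (counting interval 11.9 to 2699). This interval also leaves out the spread between mice. Without PBS replicate 1 the adjusted p of Saa3 was 0.58 (edgeR).

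Among the proteases, Mmp3 (stromelysin) was also highest in PBS replicate 1. It stood at 5.13, 0.218 and 0.935 CPM in PBS and at 0.445, 1.69, 2.31, 1.04 and 3.36 CPM in DOX. All DOX values lay between the extremes of the PBS libraries. Its log2 fold change was 0.11 ± 1.01 (SE), and 1.96 ± 0.84 without PBS replicate 1 (adjusted p = 0.701). Plaur, the gene of the urokinase receptor, stood at 7.74, 9.35 and 12.4 CPM in PBS and at 4.14, 9.58, 13.3, 7.67 and 11.2 CPM in DOX (log2 fold change -0.08 ± 0.28, SE). Plau, the gene of urokinase itself, had 3, 6 and 1 counts in PBS and 0, 1, 0, 0 and 0 in DOX. Its ratio of DOX to PBS was 0.0582 (counting interval 0.00134 to 0.409, without the spread between mice). The gene was below the filter for the test, and the lowest PBS and highest DOX library had 1 count each. After scaling these were 0.0283 and 0.0248 CPM, so the groups were separated in CPM but not in counts. Of the growth and lipid factors, Angptl4, which encodes an inhibitor of lipoprotein lipase, stood at 54.6, 32.8 and 79.1 CPM in PBS and at 54.6, 50.3, 75.1, 96.5 and 39.6 CPM in DOX. The groups overlapped, and the log2 fold change was 0.19 ± 0.31 (SE). Hgf, the gene of hepatocyte growth factor, had 60, 0 and 0 counts in PBS and 34, 10, 2, 0 and 5 in DOX.

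The genes of 3 nuclear proteins whose loss marks senescence all had a log2 fold change above 0 in DOX, and none passed. Of all genes tested, 53% had a value above 0, and Hmgb1 was at -0.0068 without PBS replicate 3. These are transcript levels, and the proteins were not measured. Lmnb1 (lamin B1) stood at 4.06, 5.07 and 1.59 CPM in PBS and at 6.67, 3.77, 4.36, 2.73 and 4.32 CPM in DOX. No DOX library lay below the lowest PBS library. Hmgb1, the gene of a chromatin protein that also acts as an alarm signal outside cells, stood at 339, 313 and 303 CPM in PBS and at 295, 331, 336, 353 and 317 CPM in DOX. Its log2 fold change of 0.04 ± 0.12 (SE) had a 95% interval from -0.22 to 0.30. Hmgb2, its paralog, stood at 46.9, 21.7 and 21.4 CPM in PBS and at 39.2, 29.4, 26.3, 34.0 and 31.5 CPM in DOX, between PBS replicate 1 and the others. The value was 0.14 ± 0.20 (SE), and 0.51 ± 0.18 without PBS replicate 1 (adjusted p = 0.701).

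The 2 batches gave different directions for many members. Within batch 1 the median of the 21 members was -0.17 (0.04 over all genes), and within batch 2 it was 0.12 (0.02 over all genes). Of the members 10 of 21 (47.6%) were lower in DOX within batch 1 and higher within batch 2, as were 27% of all genes. An interaction of batch and group tested this difference, and edgeR called 0 members and 0 of 15373 genes (0%). At an unadjusted p under 0.05 it listed 6 of 21 members (28.6%) and 1806 genes (11.7%). DESeq2 called 2 members for the interaction, Saa3 (adjusted p = 0.0254) and Mmp3 (adjusted p = 0.0453), and 269 genes. Batch 1 has 1 PBS library, so a difference between the batches and the state of PBS replicate 1 cannot be told apart.

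For the 6 members listed by the interaction the values within batches were as follows. Relb had a log2 fold change of -1.08 ± 0.42 (SE) in batch 1 and 0.41 ± 0.33 in batch 2, and Nfkbie of -1.02 ± 0.45 and 0.43 ± 0.36. Mmp3 had -2.27 ± 0.96 and 1.95 ± 0.82, and Hmgb2 -0.45 ± 0.23 and 0.50 ± 0.18. Saa3 had -0.45 ± 0.80 in batch 1, and its batch 2 ratio is given above. Tnfaip3 alone went the other way, with 1.09 ± 0.47 in batch 1 and -0.87 ± 0.32 in batch 2. The adjusted p of these interactions lay between 0.179, for Saa3, and 0.384, for Nfkbie.

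**Figure D5:**
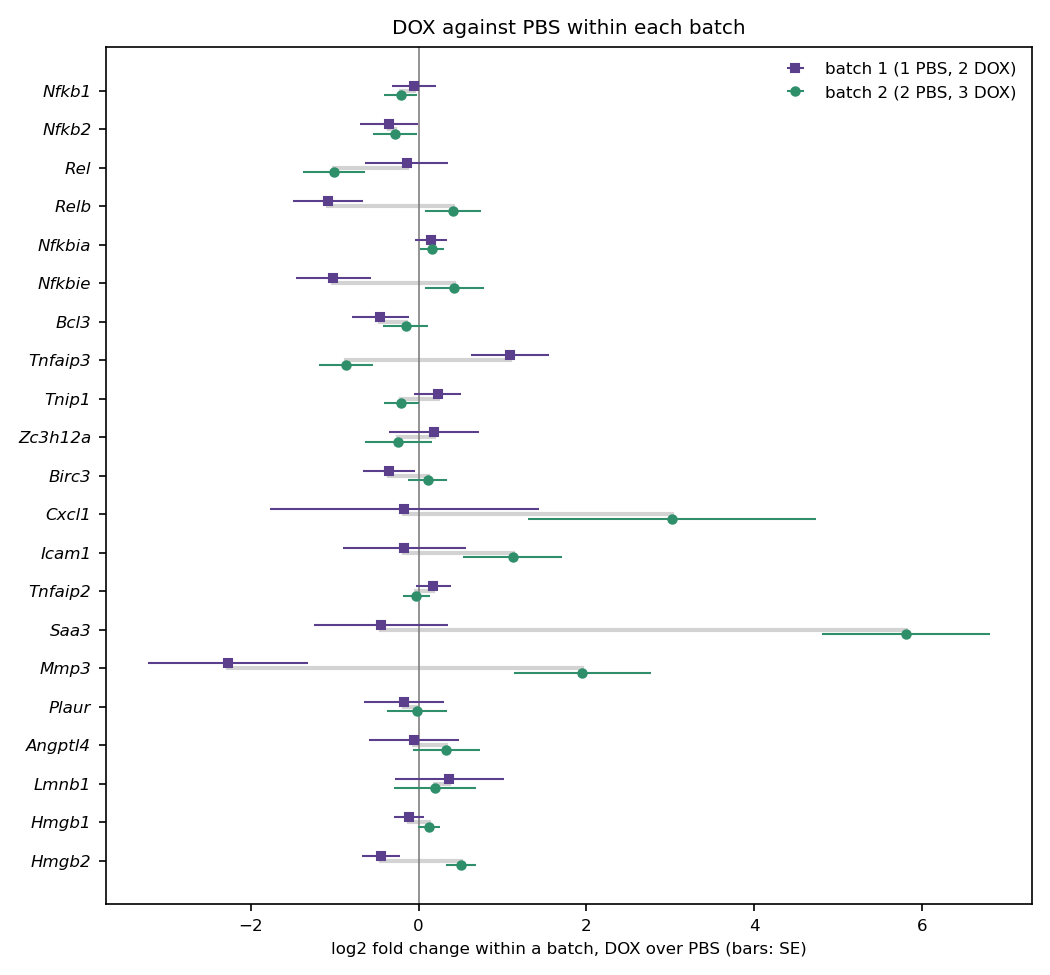
Log2 fold change of DOX over PBS within batch 1 (purple squares) and batch 2 (green circles) for the 21 tested members, with bars of 1 SE from the interaction fit. The symbols lie on opposite sides of 0 for the members listed by the interaction, Relb, Nfkbie, Tnfaip3, Saa3, Mmp3 and Hmgb2. They also do so for Tnip1, Zc3h12a, Birc3, Cxcl1, Icam1, Tnfaip2, Angptl4 and Hmgb1. The symbols lie close together for Nfkb2, Nfkbia and Plaur.

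The batches were also compared with each other, with treatment in the model, a comparison added after the values were seen. EdgeR's test of the batch term called 0 of 21 members and 14 of 15373 genes (0.0911%), and it called 0 genes without PBS replicate 1 and 4 without DOX replicate 1. At an unadjusted p under 0.05, 7 of 21 members (33.3%) had a higher fitted level in batch 1, against 7.79% of all genes, and 0 in batch 2, against 6.82%. Without PBS replicate 1 it listed 1 of 21 members in all, beside 1185 of 15953 genes. The 7 were Nfkb2, Rel, Bcl3, Cxcl1, Icam1, Saa3 and Hmgb2. Cxcl1 stood at 1.49 ± 0.598 CPM in batch 1 (SD, n = 3) and 0.160 ± 0.254 CPM in batch 2 (SD, n = 5), and Icam1 at 2.45 ± 0.525 and 0.990 ± 0.559 CPM. For Bcl3, Cxcl1 and Saa3 (14.3% of tested members, 4.38% of all genes) every batch 1 library lay above every batch 2 library. Hgf, below the filter, showed the same separation. For Saa3 it rested on the scaling. DOX replicate 2 of batch 1 had 48 counts (1.19 CPM) and DOX replicate 4 of batch 2 had 49 counts (1.13 CPM). PBS replicate 1 was the highest of the 8 libraries for 7 of 21 members (33.3%) and for 18.4% of all genes. DESeq2 called Cxcl1, Saa3 and Hgf for the batch term (adjusted p = 0.0362, 0.0356 and 0.0291).

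The batches did not overlap in the summed level of some other gene lists, and did overlap in others. The summed level of 16 immediate early genes, a class that many stimuli and cell handling induce quickly, was 2698 to 4547 CPM in batch 1 and 1558 to 2519 CPM in batch 2. That of 8 markers of stromal reticular cells (Lepr, Cxcl12 and others) was 638 to 1075 CPM in batch 1 and 182 to 605 CPM in batch 2, highest in PBS replicate 1. Of these, Cxcl12 and Kitl are also in the list of other secreted factors described last. That of 7 erythroid markers was 38.3 to 155 CPM in batch 1 and 2.32 to 10.6 CPM in batch 2, and that of 8 endothelial markers 3.60 to 19.0 and 0.709 to 1.78 CPM. By group, the immediate early sum was 1558 to 2698 CPM in PBS and 1677 to 4547 CPM in DOX, the stromal sum 182 to 1075 and 246 to 647 CPM, the erythroid sum 3.85 to 155 and 2.32 to 109 CPM and the endothelial sum 0.709 to 19.0 and 1.01 to 15.3 CPM. The 8 of 10 neutrophil markers with a row summed to 0.538 to 42.5 CPM in PBS and 7.99 to 122 CPM in DOX. The 122 CPM was in DOX replicate 5, with 47.0 CPM in DOX replicate 4 and 37.8 and 42.5 CPM in PBS replicates 1 and 2. Single neutrophil markers peaked at 87.2 CPM for Mpo, 26.9 CPM for Elane and 5.43 CPM or less for the rest. The 8 of 10 monocyte and macrophage markers with a row summed to 2.32 to 5.15 CPM in PBS and 3.80 to 7.54 CPM in DOX. Ly6g, Cxcr2, Fcgr1 and C1qc had no row, and C1qa had 0 counts in 7 libraries. The groups did not overlap for the sum of 8 fibroblast and tendon markers, at 34.4 to 39.0 CPM in PBS and 41.8 to 56.5 CPM in DOX. The 6 of 8 osteoclast markers with a row summed to 279 to 361 CPM in PBS and 334 to 428 CPM in DOX, nearly all of it Ctsk (266 to 416 CPM), with Acp5 at most 7.51 CPM. The 6 of 8 B and T cell markers with a row summed to 2.59 to 12.3 CPM in PBS and 0.248 to 16.2 CPM in DOX. This sum was higher in batch 2 (3.64 to 16.2 CPM) than in batch 1 (0.248 to 2.77 CPM). The part of these cell types and of cell handling in the members' values was not tested.

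The rest of the NF-kB pathway was described from a list of 44 genes for receptors, adaptors, kinases and ubiquitin enzymes, of which 41 were tested. In DOX 16 had a log2 fold change above 0 and 25 below, beside 53% of all genes tested above 0. Their median was -0.07 against 0.02 over all genes, and 0 passed (edgeR), as in the whole table. At an unadjusted p under 0.05, which 3.71% of all genes had, 0 were higher and 1 was lower. That gene was Tab3, which encodes an adaptor of the kinase TAK1, whose PBS libraries averaged 5.07 ± 1.48 CPM (SD, n = 3) and whose DOX libraries averaged 3.60 ± 1.11 CPM (SD, n = 5). It had a log2 fold change of -0.55 ± 0.22 (SE, adjusted p = 0.995). The next by p were Ikbkg, the regulatory subunit of the IkB kinase, with -0.33 ± 0.16 (SE), and Rela, the main transactivating subunit, with -0.24 ± 0.14. Rela stood at 55.3, 53.5 and 58.0 CPM in PBS and at 39.8, 58.1, 50.3, 41.8 and 46.5 CPM in DOX, with 4 of 5 DOX libraries below every PBS library. Both had a negative value within each batch, at -0.30 and -0.35 for Ikbkg and -0.18 and -0.27 for Rela. They were picked by p in these same data, and the share of all genes with such values was not counted.

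Other secreted factors linked to senescence made up a second list of 42 genes, of which 34 were tested. In DOX 14 had a value above 0 and 20 below, beside 53% of all genes tested above 0. Their median was -0.04 against 0.02 over all genes. In edgeR 0 passed, with 0 at an unadjusted p under 0.05 in either direction, beside 3.71% of all genes. Bmp2, which encodes a bone morphogenetic protein, had the smallest p, with a log2 fold change of -0.33 ± 0.18 (SE). Its PBS libraries averaged 54.8 ± 8.47 CPM (SD, n = 3) and its DOX libraries 43.8 ± 9.54 CPM (SD, n = 5). The list was split by batch. Its median was -0.85 within batch 1 and 0.62 within batch 2, and 23 of 34 genes were lower in DOX in the first and higher in the second, beside the 27% of all genes given above. At an unadjusted p under 0.05 the interaction listed 16 of 34, beside 11.7% of all genes. PBS replicate 1 was the highest library for 24 of 34, beside 18.4% of all genes.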

How the data were processed

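Messenger RNA of sorted osteoblasts was sequenced from cDNA made with a full-length PCR kit that does not mark strand. The deposited table holds raw counts per gene symbol and library. The submitters' processing notes list Trim Galore 0.6.6, STAR 2.7.9a, featureCounts 2.0.1 and build GRCm39. The annotation and the handling of multi-mapping reads were not given in the sources used here. No gene with a total under 10 counts is in the table. Groups come from the titles.

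The counts were tested in R 4.3.3 with edgeR 4.0.16 (TMM, filterByExpr, quasi-likelihood F test, batch and group as terms, Benjamini-Hochberg over all genes, threshold 0.05), with DESeq2 1.42.0 as an alternative. The edgeR test was also run on simulated counts with known changes. It missed part of the changed genes for DOX against PBS. For the interaction it missed more than it found, and nearly all of the smaller changes. Changes were placed only in genes above a low mean level, which Cxcl1 did not reach. A result of 0 genes called therefore does not exclude differences. Each standard error is the log2 fold change over the root of its F. Full statistics are given for the 2 members with most counts in each role and those with an unadjusted p under 0.05 for group or for the interaction, and for Rel and Bcl3, chosen after their values were seen. In the other lists the genes of smallest p are named. The members and lists were chosen with earlier results of these data known. Alternatives left out each library, changed the scaling, filter, batch term and tool, used batch 2 alone, counted DOX replicate 1 as PBS or used the replicate number as a block. Without strand, reads of overlapping genes cannot be told apart, and the Hmgb1 and Hmgb2 counts may hold reads of processed pseudogenes. Libraries held 39419027 to 44299591 counts, and the differences between libraries of a group exceeded counting error (chi-square per gene 24.9 to 525), so the spread between libraries sets the precision.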

Additional observations from a re-analysis of the deposited data

How the results depend on the processing

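EdgeR called 0 members for DOX against PBS under every alternative run, and the members' median log2 fold change lay between -0.11 (PBS replicate 2 left out) and 0.13 (PBS replicate 1 left out). DESeq2 called 26 genes where edgeR called 0, 269 genes and 2 members for the interaction where edgeR called 0, and 516 genes and 3 members for batch where edgeR called 14 and 0. The interaction called 0 to 58 genes when 1 library was left out, with 58 without DOX replicate 2 and 10 without DOX replicate 1, and it could not be fitted without PBS replicate 1. The batch term called 0 to 4 genes when PBS replicate 1 or DOX replicate 1 was left out.

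Signs changed for 10 of the 18 members with full statistics and for none of the 6 interaction or 7 batch values of members. When 1 library was left out, the log2 fold change ran from -0.47 to 0.42 for Relb, -0.35 to 0.44 for Nfkbie, -0.86 to 0.055 for Tnfaip3, -0.20 to 0.050 for Tnip1 and -0.017 to 0.11 for Tnfaip2. It ran from -0.85 to 1.96 for Mmp3, -0.27 to 0.076 for Plaur, -0.12 to 0.50 for Angptl4, -0.0068 to 0.13 for Hmgb1 and -0.56 to 0.015 for Il1r1, a receptor gene of the pathway list. In batch 2 alone it was 0.41 for Relb, 0.43 for Nfkbie, -0.021 for Tnfaip2 and 0.011 for Il1r1. Without PBS replicate 1 and DOX replicate 1 together, an alternative added after seeing the data, these were 0.41, 0.43, -0.023 and 0.0088. Like the fit without PBS replicate 1, both of these alternatives compare only the DOX and PBS libraries of batch 2. Their likeness was therefore fixed in advance. With DOX replicate 1 counted as PBS the log2 fold change was 0.15 for Relb, 0.19 for Nfkbie, 0.024 for Tnip1 and 0.23 for Plaur. Mmp3 was -0.26 with no batch term. With the replicate number as a block, Bcl3 was 0.017, Tnip1 0.090 and the members' median 0.02, and 0 genes were called. Whether the numbers pair the samples cannot be told from the values. The deviations of same-numbered libraries correlated at 0.248, -0.054 and 0.245. PBS replicates 1 and 3 correlated best with the DOX libraries of the same number, and PBS replicate 2 with DOX replicate 3. PBS replicate 2 and DOX replicate 2 were in different batches. The cause of these changes was not tested.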

Other observations

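Among the other secreted factors linked to senescence, 4 genes with the smallest interaction p, chosen after their values were seen, had PBS replicate 1 as their highest library. Igfbp6, which encodes a binding protein of insulin-like growth factors, stood at 34.1, 1.09 and 2.38 CPM in PBS replicates 1 to 3 and at 18.9, 11.5, 8.05, 11.2 and 13.3 CPM in DOX replicates 1 to 5. All 5 DOX libraries lay between PBS replicate 1 and the other PBS libraries, the arrangement of Saa3 and Hmgb2. Igfbp7 stood at 109, 12.4 and 13.6 CPM in PBS and at 39.6, 45.9, 20.8, 28.6 and 38.2 CPM in DOX. Tnfrsf11b, which encodes osteoprotegerin, the decoy receptor that restrains osteoclasts, stood at 112, 21.7 and 26.2 CPM in PBS and at 22.1, 37.3, 27.8, 30.6 and 35.1 CPM in DOX. Fgf7 stood at 28.8, 4.99 and 7.08 CPM in PBS and at 11.4, 14.0, 8.35, 9.63 and 10.6 CPM in DOX. The edgeR interaction had an adjusted p of 0.140 for Igfbp6, Igfbp7 and Tnfrsf11b and 0.153 for Fgf7. This adjusted p depended on which library was left out. Without DOX replicate 2 it was 0.0469 for Igfbp7 and 0.0223 for Tnfrsf11b, the lowest values. Without PBS replicate 3 it was 0.413 for both, the highest. DESeq2 called the interaction of all 4, with an adjusted p of 3.5e-07 for Igfbp6 and 0.00331 for Fgf7. The batch 1 side of each rests on PBS replicate 1 alone.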
